A study of Mus musculus with 4 samples.

Results

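The transcripts of 10 genes of the S100 and annexin families, S100a4, S100a6, S100a8, S100a9, S100a10, S100a11, Anxa1, Anxa2, Anxa3 and Anxa5, were followed in single cells of mouse brown adipose tissue (BAT). The genes were taken by symbol, and all 10 were found among the 32285 genes of the count matrices. The cells were the stromal vascular fraction (SVF), that is, what remains of digested fat once the floating adipocytes are removed. They were sequenced as 4 libraries, 1 for each group, and by the study's methods the SVF of 3 mice was pooled for each of them. The question was how BAT cells differ between lean mice and mice made obese by genotype or by diet.

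The labels gave C57BL6/J as the strain of all 4 libraries. The WT library came from wild-type mice aged 10 weeks. The 8-week and 16-week db/db libraries (db/db 8w and db/db 16w in the plots) came from mice aged 8 and 16 weeks that carry a mutation of the leptin receptor gene, which leads to overeating, obesity and diabetes, and the study's methods named their strain as B6.BKS(D)-Lepr db/J. The HFD library came from wild-type mice given a high-fat diet. Its label recorded an age of 10 weeks, whereas the methods started the diet at 10 weeks of age and kept it for a further 10 weeks. No WT library of 8 or 16 weeks was analysed here, so age and genotype cannot be told apart between WT and either db/db library. If the HFD mice were as old as the methods imply, age and diet cannot be told apart between WT and HFD either. With 1 library per group there is no replicate, no difference was tested, and every interval given covers counting error only, not the spread between mice or preparations. All comparisons to WT share the single WT library, so they are given side by side.

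Levels were computed from unique molecular identifiers (UMIs, 1 per captured transcript) and scaled in the usual way to counts per fixed total of UMIs of the same cells (CPM). After quality filtering 5944, 11648, 5833 and 5462 cells were kept in the WT, 8-week db/db, 16-week db/db and HFD libraries, and their summed UMIs ranged from 26558173 to 53420105. Of the barcodes deposited for HFD only 31.3% were kept, as 68.5% exceeded the mitochondrial limit. The 16-week db/db library stood apart from the other libraries in values that no group label accounts for. Its Xist level was 206.6 CPM against 0.187 to 0.689 CPM elsewhere, and its level of 4 Y-linked genes was 17.73 CPM against 164.5 to 187.8 CPM, although the study used males. Its mitochondrial share of UMIs was 0.938% against 3.90% to 9.52%, and its ribosomal protein share was 22.1% against 10.8% to 14.6%. The part of these differences in the results was not tested, and the comparisons of 8-week db/db and HFD with WT do not involve this library. In every comparison of 16-week db/db, with 8-week db/db as with WT, age cannot be told apart from these differences. Between 16 and 97 barcode sequences were shared by any 2 libraries.

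S100 proteins are small calcium-binding proteins with paired EF-hand motifs that work inside the cell as dimers, and some are also secreted as alarm signals. Annexins bind phospholipid membranes when calcium rises and take part in membrane repair, vesicle traffic and the control of inflammation. Both families meet in fixed pairs, of which the complex of S100A10 with annexin A2 is the best known, and S100A8 with S100A9 forms calprotectin, one of the most abundant cytosolic proteins of neutrophils.

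The 6 S100 genes lie on chromosome 3 (GRCm38, GENCODE annotation). S100a4 (90603771 to 90606045, plus strand) and S100a6 (90612882 to 90624181, plus strand) are 6.84 kb apart, with S100a5 between them. S100a8 (90668978 to 90670035, plus strand) follows 44.8 kb further on, and S100a9 (90692632 to 90695721, minus strand) lies 22.6 kb beyond it. S100a11 (93520488 to 93526287) and S100a10 (93555080 to 93564643) form a second pair, 28.8 kb apart. The annexins are scattered, with Anxa5 at 36448923 to 36475894 on chromosome 3, Anxa3 at 96793339 to 96845966 on chromosome 5, Anxa2 at 69453620 to 69491795 on chromosome 9 and Anxa1 at 20373428 to 20390944 on chromosome 19.

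RefSeq promoters (GRCm38.p6, 250 bases before to 50 after the annotated start) were listed for 8 of the 10 genes, all but S100a10 and Anxa3. Those of S100a4, S100a6, S100a8 and S100a9 are shown in the direction of transcription. S100a4 and S100a6 were both at least 2-fold above WT in both db/db libraries and both large lineages. S100a8 and S100a9 encode the subunits of calprotectin. Capitals mark matches, on either strand, to AP-1 (TGANTCA), C/EBP (TTGCNNAA), PU.1 (GAGGAAG) or a TATA box (TATAAA).
S100a4, chr3:90603520-90603819, plus strand: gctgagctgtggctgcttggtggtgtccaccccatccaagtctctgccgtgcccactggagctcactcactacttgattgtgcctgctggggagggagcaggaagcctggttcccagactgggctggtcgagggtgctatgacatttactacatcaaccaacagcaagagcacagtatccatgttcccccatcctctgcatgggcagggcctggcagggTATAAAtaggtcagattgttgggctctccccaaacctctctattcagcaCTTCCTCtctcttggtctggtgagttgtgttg
S100a6, chr3:90612644-90612943, plus strand: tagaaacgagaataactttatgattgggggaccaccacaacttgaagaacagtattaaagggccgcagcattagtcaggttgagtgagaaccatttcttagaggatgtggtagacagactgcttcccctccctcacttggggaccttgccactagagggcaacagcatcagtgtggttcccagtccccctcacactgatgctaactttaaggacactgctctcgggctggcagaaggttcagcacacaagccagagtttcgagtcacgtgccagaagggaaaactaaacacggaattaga
S100a8, chr3:90668821-90669120, plus strand: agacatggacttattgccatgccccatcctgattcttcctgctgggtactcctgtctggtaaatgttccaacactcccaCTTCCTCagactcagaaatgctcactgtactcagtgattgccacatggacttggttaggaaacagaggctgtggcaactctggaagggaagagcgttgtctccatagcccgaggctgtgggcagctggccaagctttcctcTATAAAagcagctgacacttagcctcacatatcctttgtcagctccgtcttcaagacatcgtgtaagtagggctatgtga
S100a9, chr3:90695672-90695971, minus strand: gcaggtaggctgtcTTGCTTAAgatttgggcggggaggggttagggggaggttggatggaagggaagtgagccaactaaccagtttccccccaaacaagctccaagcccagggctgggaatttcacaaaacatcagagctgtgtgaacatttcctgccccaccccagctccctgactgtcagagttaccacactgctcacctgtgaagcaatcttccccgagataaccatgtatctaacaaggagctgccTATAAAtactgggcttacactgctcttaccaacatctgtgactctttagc
Counted from 1 at the start site, S100a4 held a TATA box at -31 and a PU.1 match at 19, S100a8 a TATA box at -30 and a PU.1 match at -171, and S100a9 a TATA box at 1 and a C/EBP match at -236. The S100a6 window held none of the 4 motifs. Of 32851 promoters of this length, 7.81% held AP-1, 10.8% C/EBP, 13.6% PU.1 and 13.6% a TATA box. Among the members not printed, S100a11 held 2 AP-1 matches and Anxa2 held 1 together with a TATA box. Anxa1 held a C/EBP match and a TATA box, and Anxa5 held none. A match describes the letters in these windows and does not show binding.

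To place the transcripts in cell types, each cell was assigned to a lineage by raw UMIs of 8 marker genes per lineage, none of them a member. A cell needed 3 distinct markers and every other lineage could have at most 50% as many. The monocyte and macrophage (Mono/MAC) gate held 1132, 2906, 2169 and 1560 cells in WT, 8-week db/db, 16-week db/db and HFD, and the stromal gate 4165, 5801, 1106 and 1421 cells. These were 19.0%, 25.0%, 37.2% and 28.6% of kept cells for Mono/MAC and 70.1%, 49.8%, 19.0% and 26.0% for stromal cells. The endothelial gate held 22, 87, 1352 and 1319 cells. Levels over all cells therefore mix a changing makeup with changes inside lineages, and fewer cells of a type and less RNA per cell cannot be told apart there.

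**Figure D1:**
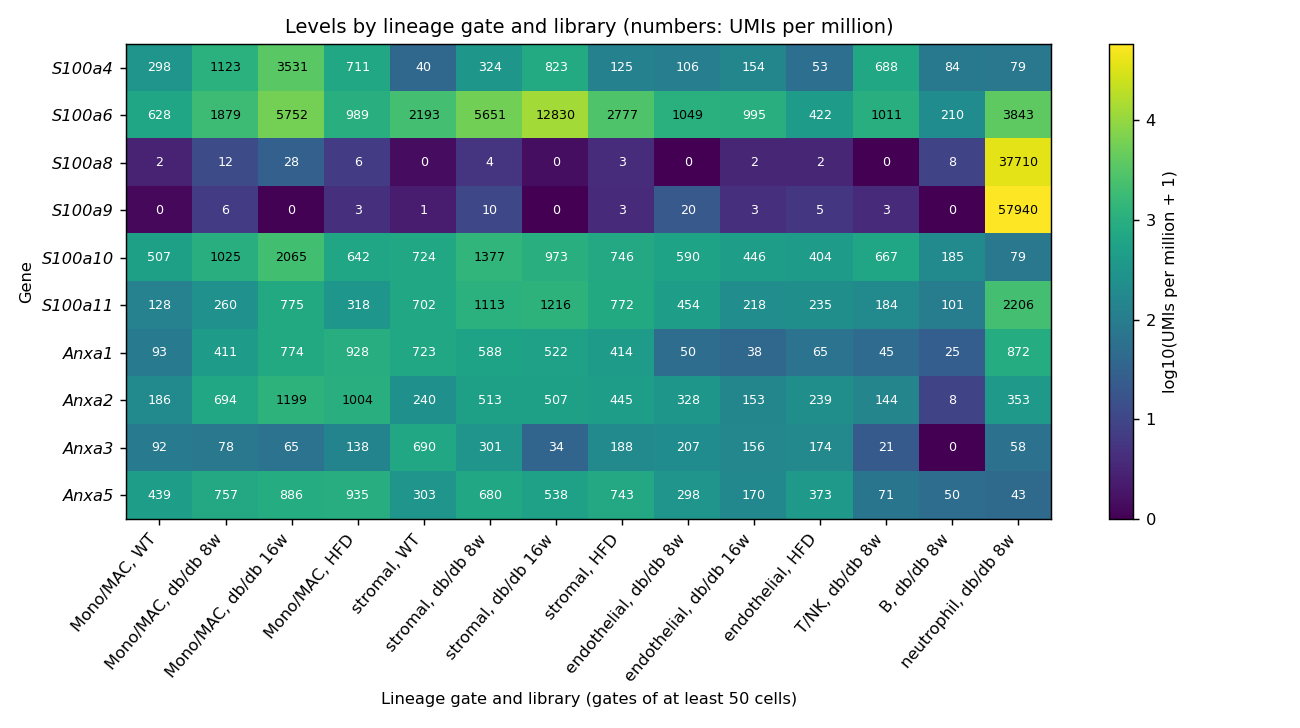
Levels of the 10 genes (rows) in every lineage gate and library with at least 50 cells (columns); colour is log10 of CPM plus 1 and the printed numbers are CPM rounded to whole numbers. S100a8 and S100a9 reached 37710 and 57940 CPM in the neutrophil gate of 8-week db/db, and S100a6 reached 12830 CPM in stromal cells of 16-week db/db.

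Apart from S100a8 and S100a9, S100a4, a regulator of cell motility also known as FSP1, had the widest range of levels over all cells. It stood at 106.5 CPM in WT, 671 CPM in 8-week db/db, 2721 CPM in 16-week db/db and 375 CPM in HFD. The 3 libraries of obese mice were all above WT, by 6.30-fold, 25.5-fold and 3.52-fold. Anxa3, an annexin linked to phospholipase regulation, went the other way, with 559 CPM in WT and 198, 64.9 and 157 CPM in 8-week db/db, 16-week db/db and HFD. The WT level of Anxa3 was 2.83, 8.62 and 3.55 times the levels of those 3 libraries.

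A gene was counted as higher or lower when its level differed at least 2-fold and reached 20 CPM in at least 1 of the 2 libraries. The members were chosen with earlier results of these data known. Here and below, their counts and medians beside those of all tested genes are therefore a description and no separate evidence. Over all cells of 8-week db/db, 6 of 10 members were higher than in WT and Anxa3 was lower, where 5.78% of all tested genes were higher and 4.98% lower. In 16-week db/db 7 of 10 were higher and Anxa3 was lower, against 20.4% and 25.9% of all tested genes. In HFD 3 of 9 tested members were higher (S100a4, Anxa2 and Anxa5) and 2 lower (S100a9 and Anxa3), against 15.1% and 11.6%. Between 16-week db/db and 8-week db/db only S100a4 was higher and S100a8, S100a9 and Anxa3 were lower, where 10.6% of all tested genes were higher and 19.3% lower. In the comparisons with WT, S100a8 in both db/db libraries and S100a9 in HFD reached 20 CPM in 1 of the 2 libraries only, and without them the counts higher and lower were 5 and 1 of 9, 6 and 1 of 9, and 3 and 1 of 8. With no mitochondrial limit the log2 ratio of S100a8 in HFD to WT went from -1.78 to 0.35.

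In the Mono/MAC gate the members were higher in the libraries of obese mice as a group, and none was at least 2-fold lower. In 8-week db/db 6 of 8 tested members were higher than in WT, with 5.54% of all tested genes higher and 5.49% lower. In 16-week db/db 8 of 9 were higher, with 22.9% and 25.8% of all tested genes higher and lower, and in HFD 5 of 8, with 14.1% and 11.1%. The median log2 ratio of the tested members was 1.30, 2.69 and 1.17, and that of all tested genes 0.05, -0.09 and 0.20. Between 16-week db/db and 8-week db/db, the 5 members counted as higher were S100 genes (S100a4, S100a6, S100a8, S100a10 and S100a11) of 9 tested, where 10.6% of all tested genes were higher and 19.0% lower. S100a8 entered the comparisons of 16-week db/db only because it reached 20 CPM in that library. With 20 CPM required in both libraries, an alternative added after the data had been seen, 7 of 8 members were higher against WT, with a median log2 ratio of 2.65, and 4 of 8 against 8-week db/db. Anxa1, Anxa2, Anxa3 and Anxa5 differed less than 2-fold between the db/db libraries, with log2 ratios of 0.91, 0.79, -0.26 and 0.23.

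S100a4 in the Mono/MAC gate stood at 298 CPM in WT, 1123 CPM in 8-week db/db, 3531 CPM in 16-week db/db and 711 CPM in HFD. Its log2 ratio to WT was 1.91 (95% interval 1.85 to 1.98) in 8-week db/db, 3.57 (3.504 to 3.626) in 16-week db/db and 1.25 (1.19 to 1.32) in HFD. S100a4 was thus highest in 16-week db/db, lowest in WT, and higher in 8-week db/db than in HFD, with no overlap of the counting intervals. S100a6, also called calcyclin, stood at 627.5, 1879, 5752 and 989 CPM in the same order, with log2 ratios to WT of 1.58, 3.20 and 0.66. Its order over the libraries was that of S100a4, but the HFD level lay within 2-fold of WT.

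The shares of cells moved in the same order as the levels. With each Mono/MAC cell thinned at random to 1000 UMIs, S100a4 was seen in 15.1%, 52.3%, 87.4% and 40.8% of cells of WT, 8-week db/db, 16-week db/db and HFD. In endothelial cells, which hold little S100a4, the thinned share was 4.17%, 4.21% and 5.09% in 8-week db/db, 16-week db/db and HFD. The median depth before thinning was 5155, 6267 and 5736 UMIs in Mono/MAC cells and 1745, 1044 and 4261 UMIs in endothelial cells of these 3 libraries. Without thinning S100a4 was seen in 39.1%, 80.5%, 96.4% and 72.1% of Mono/MAC cells of the 4 libraries and in 8.05%, 4.81% and 15.4% of endothelial cells of the last 3. Thinning left out 9, 139, 30 and 0 Mono/MAC cells and 15, 639 and 3 endothelial cells. S100a4 and S100a6 were seen together in 9.88%, 43.4%, 85.7% and 25.9% of thinned Mono/MAC cells.

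S100a10, whose product pairs with annexin A2 at the membrane, had Mono/MAC levels of 507, 1025, 2065 and 642 CPM for WT, 8-week db/db, 16-week db/db and HFD. S100a11, a partner of annexin A1, stood at 128, 260, 775 and 318.5 CPM. Both were more than 2-fold above WT in the db/db libraries. In 8-week db/db both lay close to the limit of 1, S100a10 at log2 1.02 (0.97 to 1.07) and S100a11 at 1.025 (0.925 to 1.126). HFD was less than 2-fold above WT for S100a10, at log2 0.34, but 1.32 for S100a11.

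Anxa1, which acts on formyl peptide receptors to restrain leukocyte entry, differed from the S100 genes in that HFD ranked first. In Mono/MAC cells it stood at 93.4 CPM in WT, 411 CPM in 8-week db/db, 774 CPM in 16-week db/db and 928 CPM in HFD, and the log2 ratios to WT were 2.14 (2.03 to 2.25), 3.05 (2.94 to 3.16) and 3.31 (3.20 to 3.42). Anxa2, whose product binds S100A10 and plasminogen, stood at 186, 694, 1199 and 1004 CPM. Its log2 ratios were 1.90, 2.69 and 2.44, so that WT was lowest and 16-week db/db highest. Anxa5, known for its binding to phosphatidylserine, stood at 439 CPM in WT and at 757, 885.5 and 935 CPM in 8-week db/db, 16-week db/db and HFD, and the log2 ratios were 0.79, 1.01 and 1.09. Anxa3 stayed between 65.3 and 138 CPM in this gate, and no library differed 2-fold from WT.

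Transcripts of other cells were tracked in the same gate through Col1a1, Col3a1 and Dcn, defining genes of stromal cells. Their summed level in Mono/MAC cells was 605.5 CPM in WT, 422 CPM in 8-week db/db, 20.02 CPM in 16-week db/db and 268 CPM in HFD, against 30000 CPM and more in stromal cells. This stromal sum was highest in WT and lowest in 16-week db/db, and its part in the Mono/MAC values was not tested.

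**Figure D2:**
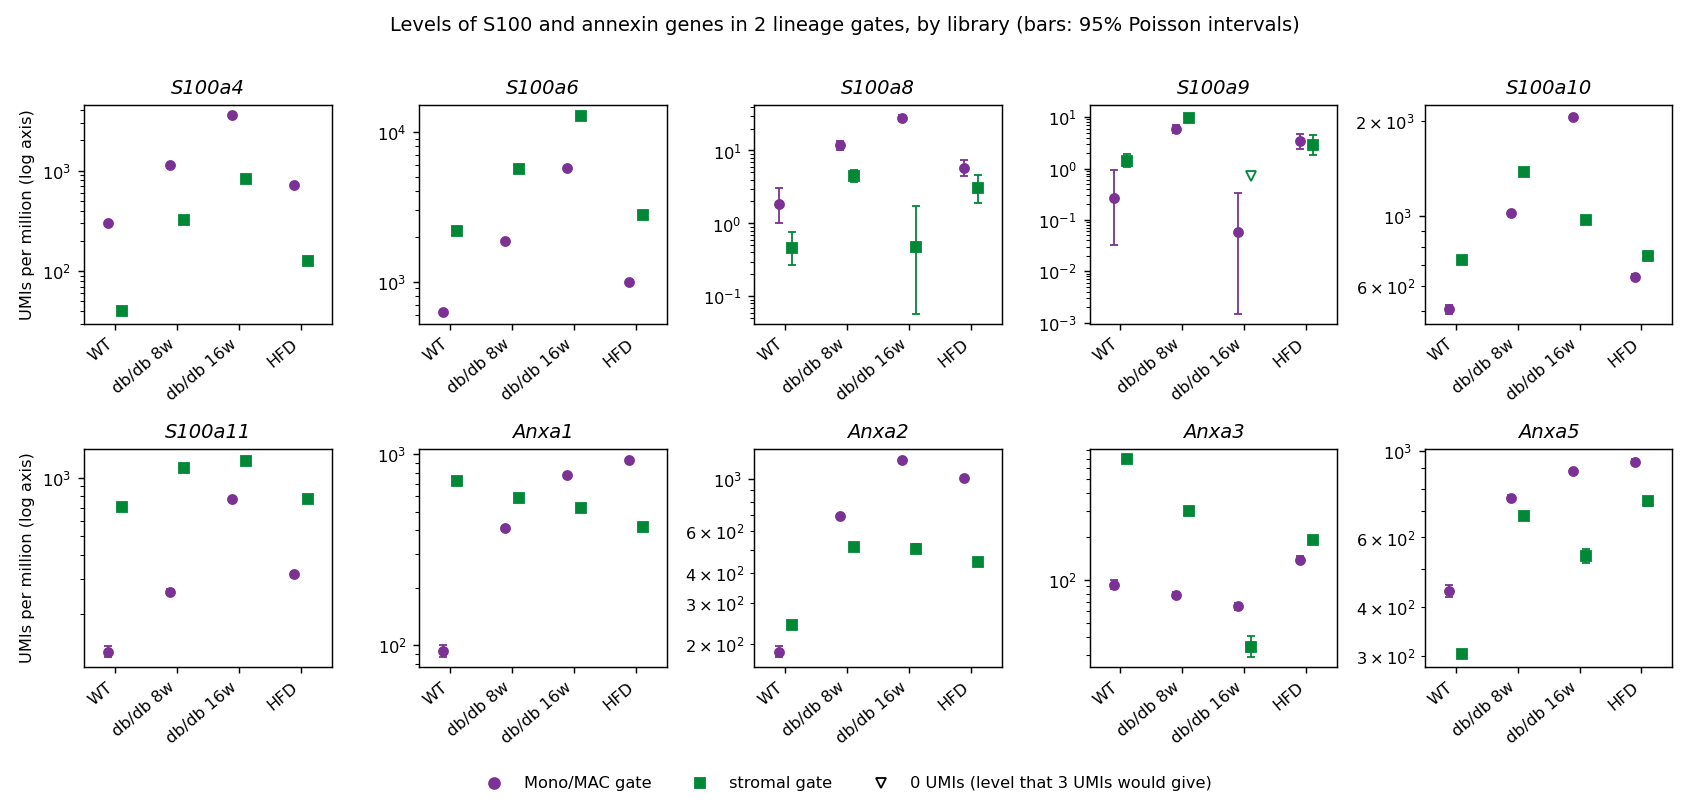
Levels in CPM (log axes) of the 10 genes in the Mono/MAC gate (circles) and the stromal gate (squares) of the 4 libraries, with 95% Poisson intervals; the open triangle marks a count of 0, drawn at the level that 3 UMIs would give. In Mono/MAC cells S100a4 ranged from 298 CPM in WT to 3531 CPM in 16-week db/db, and Anxa1 from 93.4 CPM in WT to 928 CPM in HFD.

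In the stromal gate, S100a4 and Anxa3 showed the widest ranges, in opposite directions. S100a4 stood at 39.6 CPM in WT, 324 CPM in 8-week db/db, 823 CPM in 16-week db/db and 125 CPM in HFD, with log2 ratios to WT of 3.03 (2.95 to 3.12), 4.38 (4.29 to 4.47) and 1.66 (1.54 to 1.78). Anxa3 stood at 690, 301, 34.1 and 188 CPM, with log2 ratios of -1.20 (-1.24 to -1.16), -4.34 (-4.59 to -4.10) and -1.88 (-1.95 to -1.80). WT and 16-week db/db were thus at opposite ends for both genes, whereas HFD lay below 8-week db/db in both.

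S100a6 stood at 2193, 5651, 12830 and 2777 CPM in stromal cells of WT, 8-week db/db, 16-week db/db and HFD. Its log2 ratios to WT were 1.37, 2.55 and 0.34. Thinned to 1000 UMIs, 71.0% of WT stromal cells and 98.0% of those of 16-week db/db held an S100a6 UMI (90.1% and 98.8% without thinning). Anxa2 stood at 240.5, 513, 507 and 445 CPM and Anxa5 at 303, 680, 538 and 743 CPM, so both were lowest in WT and varied little among the libraries of obese mice. S100a10 stood at 724, 1377, 973 and 746 CPM and S100a11 at 702, 1113, 1216 and 772 CPM, all within 2-fold of WT.

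Anxa1 was above WT in Mono/MAC cells of all 3 libraries of obese mice and below it in stromal cells, although the stromal ratios lay within 2-fold and changed with the processing. In stromal cells it was highest in WT, at 723 CPM, and lower in 8-week db/db, 16-week db/db and HFD, at 588, 522 and 413.5 CPM. Their log2 ratios to WT were -0.30, -0.47 and -0.81, all within 2-fold. In WT 94.4% of Anxa1 UMIs came from stromal cells, whereas in 16-week db/db 76.9% and in HFD 58.5% came from Mono/MAC cells. In 8-week db/db the Mono/MAC gate held 29.0% and the stromal gate 58.9%. These shares also depend on the size of the gates. Of the UMIs of all genes, the stromal gate held 34375465 of 45025949 in WT. The Mono/MAC gate held 18796979 of 53420105 in 8-week db/db, 16935955 of 26558173 in 16-week db/db and 11059741 of 32606428 in HFD.

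Of 8 tested members in stromal cells, 4 were higher (S100a4, S100a6, Anxa2 and Anxa5) and Anxa3 was lower in 8-week db/db than in WT, where 3.65% of all tested genes were higher and 2.87% lower. In 16-week db/db 3 were higher and Anxa3 was lower, against 13.2% and 14.9%, and in HFD 2 were higher (S100a4 and Anxa5) and Anxa3 was lower, against 8.96% and 7.83%. Between the db/db libraries S100a4 and S100a6 were higher in the 16-week library, by log2 1.34 and 1.18, and Anxa3 was lower, by log2 -3.14. Of all tested genes 5.41% were higher and 9.74% lower. The median log2 ratio to WT of the tested members was 1.01, 0.81 and 0.24 in 8-week db/db, 16-week db/db and HFD, beside 0.03, 0.01 and 0.08 for all tested genes. Macrophage transcripts (C1qa, C1qb and Lyz2) summed to 98.2, 304, 134 and 317 CPM in stromal cells of WT, 8-week db/db, 16-week db/db and HFD, and to 13200, 11190, 7876 and 10710 CPM in Mono/MAC cells. The sum in stromal cells was lowest in WT and highest in HFD, whereas S100a4 was lowest in WT and highest in 16-week db/db. The part of this sum in the S100a4 values was not tested.

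Both gates hold subsets whose shares differed strongly between the libraries, so the genes were followed inside them. Mono/MAC cells with at least 2 of 8 lipid-associated markers, among them Trem2, Gpnmb and Cd9, made up 1.502%, 28.7%, 65.4% and 73.4% of the gate in WT, 8-week db/db, 16-week db/db and HFD. Cells with perivascular markers such as Lyve1, Folr2 and Cd163 made up 85.0%, 48.2%, 15.4% and 4.55%. In the stromal gate, cells with progenitor markers such as Pi16 and Dpp4 made up 62.7%, 28.6%, 2.53% and 10.1%, and cells with preadipocyte markers such as Col15a1 and Pparg 12.7%, 46.7%, 91.2% and 78.8%.

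Within each library Anxa1, Anxa2 and S100a11 were higher in lipid-associated than in perivascular macrophages. Anxa1 stood at 639, 885 and 1070 CPM in lipid-associated cells of 8-week db/db, 16-week db/db and HFD and at 187, 228 and 146 CPM in perivascular cells, log2 differences of 1.77, 1.95 and 2.88. The 17 lipid-associated cells of WT held Anxa1 at 288 CPM and its 962 perivascular cells at 80.1 CPM. Anxa2 differed by log2 2.13, 1.73 and 2.27 and S100a11 by 1.46, 1.84 and 1.29 in the same 3 libraries. S100a4 and S100a6 differed between the subsets by log2 0.43 to 0.87 and 0.09 to 0.85 in these 3 libraries. In WT, S100a4 stood at 545 CPM in the 17 lipid-associated and 208 CPM in the perivascular cells, and S100a6 at 1196 and 477.5 CPM, so the WT subsets lay further apart.

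Within the perivascular subset several members also differed between the db/db libraries and WT, whereas no tested member of HFD reached 2-fold. The share of all genes at least 2-fold apart was not computed for single subsets. In perivascular cells S100a4 stood at 208, 931, 2054 and 389.5 CPM in WT, 8-week db/db, 16-week db/db and HFD, log2 ratios to WT of 2.16, 3.30 and 0.90. S100a6 stood there at 477.5, 1826, 5006 and 572 CPM, log2 ratios of 1.94, 3.39 and 0.26. The log2 ratios of Anxa1 were 1.22, 1.51 and 0.86, those of Anxa2 0.94, 1.66 and 0.85, and those of S100a11 0.53, 1.42 and 0.61. In the lipid-associated cells, S100a4 was 1259, 3763 and 710 CPM in 8-week db/db, 16-week db/db and HFD, so HFD again lay below both db/db libraries. Anxa2 was nearly level among lipid-associated cells, at 1052, 1086, 1362 and 1130 CPM in the 4 libraries. Cells with monocyte markers such as Ly6c2 and Ccr2, 22 to 69 per library, held S100a4 at 857, 1767, 1978 and 1756 CPM.

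Among stromal cells Anxa3 differed between the subsets by more than it did between libraries within either subset. It stood at 882, 810.5, 482 and 1370 CPM in progenitors and at 66.5, 37.7, 26.5 and 54.1 CPM in preadipocytes of WT, 8-week db/db, 16-week db/db and HFD. The progenitor level was above the preadipocyte level by log2 3.73, 4.43 and 4.66 in WT, 8-week db/db and HFD, and 16-week db/db had only 28 progenitors. Anxa1 too was higher in progenitors, at 852, 1009, 827 and 1093 CPM against 321, 371, 519 and 330 CPM. S100a4 and S100a6 went the other way, S100a4 with 59.3, 358, 845 and 123 CPM in preadipocytes and 23.2, 163, 121 and 91.2 CPM in progenitors. Within preadipocytes the log2 ratio of S100a4 to WT was 2.59, 3.84 and 1.06 and that of S100a6 1.32, 2.35 and 0.14 in 8-week db/db, 16-week db/db and HFD.

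**Figure D3:**
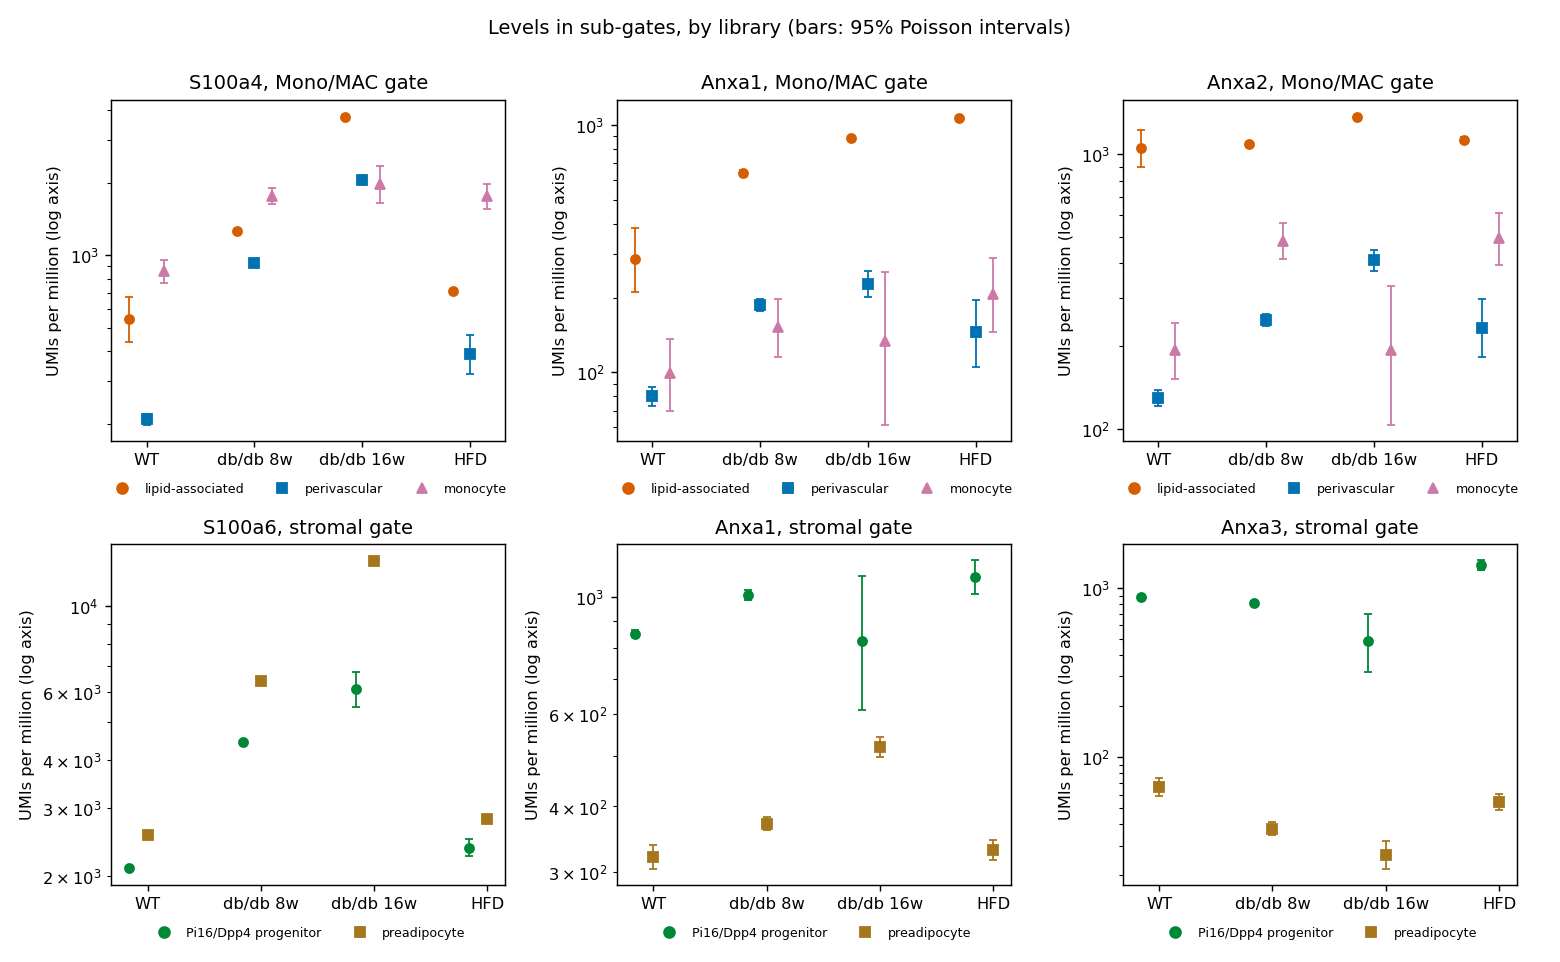
Levels in CPM (log axes) of selected genes in subsets of the Mono/MAC gate (upper row) and of the stromal gate (lower row), by library, with 95% Poisson intervals. S100a4 in perivascular cells went from 208 CPM in WT to 2054 CPM in 16-week db/db, whereas Anxa3 separated progenitors (482 to 1370 CPM) from preadipocytes (26.5 to 66.5 CPM) in all 4 libraries.

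To see how much of each ratio remains at 1 makeup, the subset levels of each library were averaged with the subset shares of WT UMIs, an alternative chosen after the data had been seen. For S100a4 in Mono/MAC cells the log2 ratios to WT went from 1.91, 3.57 and 1.25 to 1.75, 2.89 and 0.74 in 8-week db/db, 16-week db/db and HFD. For S100a6 they went from 1.58, 3.20 and 0.66 to 1.56, 2.99 and 0.02. Anxa1 went from 2.14, 3.05 and 3.31 to 1.21, 1.499 and 1.01, and Anxa2 from 1.90, 2.69 and 2.44 to 0.83, 1.30 and 0.66. S100a11 went from 1.025, 2.603 and 1.319 to 0.395, 1.281 and 0.365. In stromal cells Anxa3 went from -1.20, -4.34 and -1.88 to -0.33, -1.16 and 0.38, so its HFD ratio changed sign, and S100a4 went from 3.03, 4.38 and 1.66 to 2.75, 2.95 and 1.52. Stromal Anxa1 went from -0.30, -0.47 and -0.81 to 0.13, -0.06 and 0.20, with the sign changed in 8-week db/db and HFD. Stromal Anxa5 went from 1.167, 0.829 and 1.295 to 0.891, -0.294 and 0.663, with the sign changed in 16-week db/db. Stromal Anxa2 went from 1.094, 1.075 and 0.889 to 1.132, 0.395 and 0.913.

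At the WT makeup 4, 7 and 1 members of the Mono/MAC gate were at least 2-fold from WT in 8-week db/db, 16-week db/db and HFD, beside 4.22%, 30.8% and 21.3% of all tested genes in either direction. The 7 members of 16-week db/db include S100a8, which reached 20.8 CPM there against 1.85 CPM in WT. In the stromal gate the counts were 4, 3 and 1, beside 4.76%, 29.9% and 10.6%. The Mono/MAC values of HFD then rest mostly on its 71 perivascular cells, and the stromal values of 16-week db/db mostly on its 28 progenitors.

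**Figure D4:**
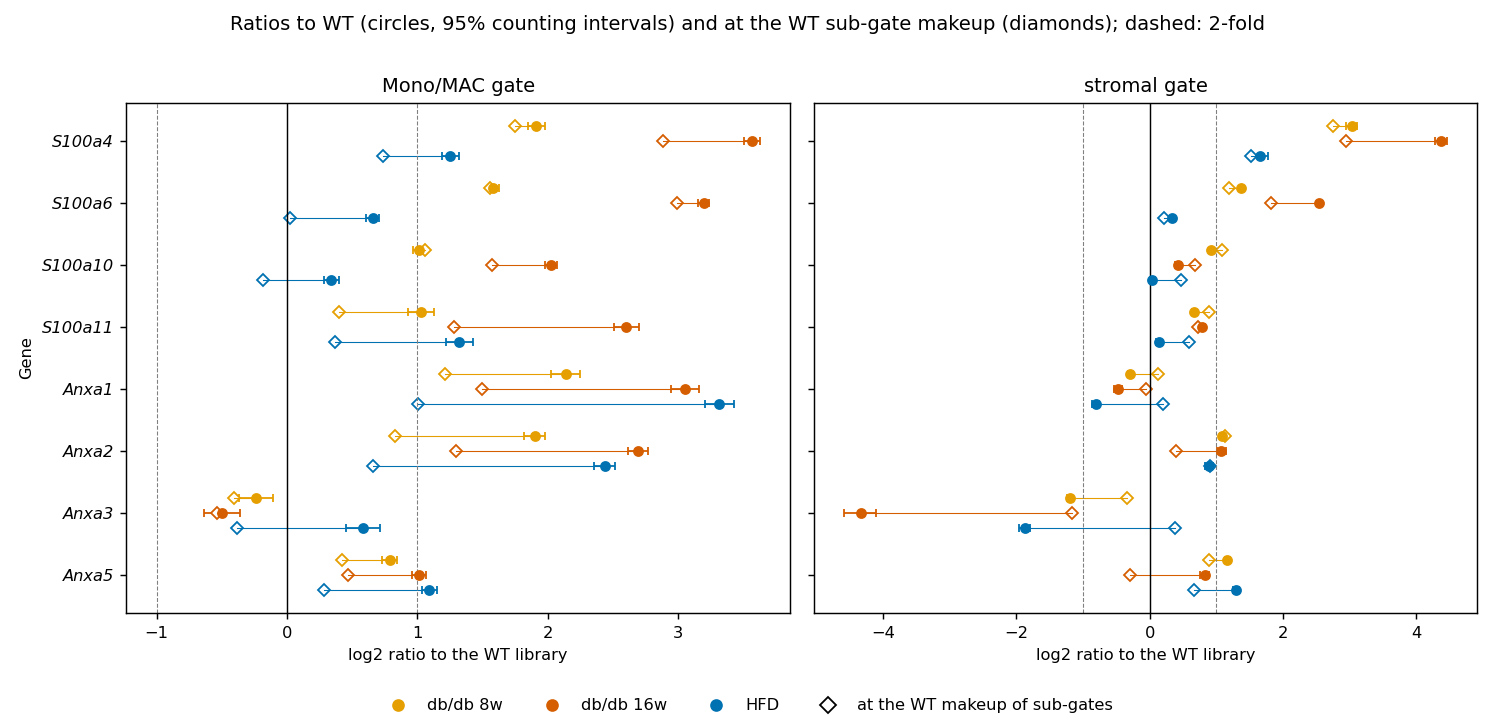
Log2 ratios to the WT library of 8 genes in the Mono/MAC gate (left) and the stromal gate (right), with 95% counting intervals (filled circles) and at the WT makeup of subsets (open diamonds); dashed lines mark 2-fold. S100a4 in Mono/MAC cells of 16-week db/db moved from 3.57 to 2.89, and Anxa3 in stromal cells of HFD from -1.88 to 0.38.

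S100a8 and S100a9, the calprotectin subunits, lay mostly in few cells. In the neutrophil gate S100a8 reached 27720, 37710 and 104900 CPM and S100a9 53100, 57940 and 183900 CPM in WT, 8-week db/db and 16-week db/db, in 5, 90 and 6 cells. No HFD cell passed this gate, which allows a share of up to 0.0549% of the kept cells. Cells with at least 10 UMIs of each gene numbered 11 in WT, 89 in 8-week db/db, 11 in 16-week db/db and 0 in HFD, and held 97.7%, 89.5% and 76.5% of all S100a8 and S100a9 UMIs in the first 3. HFD kept 129 S100a8 UMIs and 134 S100a9 UMIs in all, so 8-week db/db was highest and HFD lowest. Among barcodes removed for mitochondrial UMIs, however, 1, 20, 0 and 26 held 10 or more UMIs of each gene in WT, 8-week db/db, 16-week db/db and HFD.

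The 2 subunits parted in Mono/MAC cells, most widely in 16-week db/db. In the neutrophil gate S100a8 and S100a9 UMIs stood in a ratio of 0.522, 0.651 and 0.570 in WT, 8-week db/db and 16-week db/db. In Mono/MAC cells there were 14 and 2 UMIs in WT, 222 and 111 in 8-week db/db, 472 and 1 in 16-week db/db, and 64 and 38 in HFD. The ratio was 7 (1.61 to 63.5) in WT, 472 (84.3 to 18680) in 16-week db/db, 2 (1.59 to 2.54) in 8-week db/db and 1.68 (1.11 to 2.59) in HFD. In 8-week db/db, lipid-associated cells held 107 S100a8 and 14 S100a9 UMIs, and cells with monocyte markers 31 and 0. The S100a8 level of 27.9 CPM in 16-week db/db was above the 1.85 CPM of WT by log2 3.91 (3.15 to 4.79), and the other libraries stood at 11.8 and 5.79 CPM, below the level of 20 CPM needed for a count.

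The S100a8 UMIs of 16-week db/db were spread over 359 of 2169 Mono/MAC cells, with at most 6 in a cell, and 443 of the 472 lay in cells without any neutrophil marker. In the same library 2 UMIs were found in 1106 stromal cells and 4 in 1352 endothelial cells. Thinned to 1000 UMIs, S100a8 was seen in 2.43% of Mono/MAC cells and 0.140% of endothelial cells of 16-week db/db, which had median depths of 6267 and 1044 UMIs. The thinned share in Mono/MAC cells was 0.267%, 0.651% and 0.705% in WT, 8-week db/db and HFD. Without thinning the shares were 16.6% of Mono/MAC and 0.148% of endothelial cells in 16-week db/db, and 0.972%, 4.96% and 3.27% of Mono/MAC cells in the other libraries. In 16-week db/db S100a8 stood at 30.1 CPM in lipid-associated cells and at 208 CPM in the 22 cells with monocyte markers. In 8-week db/db the 222 UMIs were spread over 144 Mono/MAC cells, 1 of which held 26, and 160 lay in cells without any neutrophil marker. In HFD the 64 UMIs were spread over 51 cells, and 60 lay in cells without such a marker, as did 5 of 14 in WT. In 8-week db/db 84.6% of all S100a8 UMIs lay in the neutrophil gate.

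**Figure D5:**
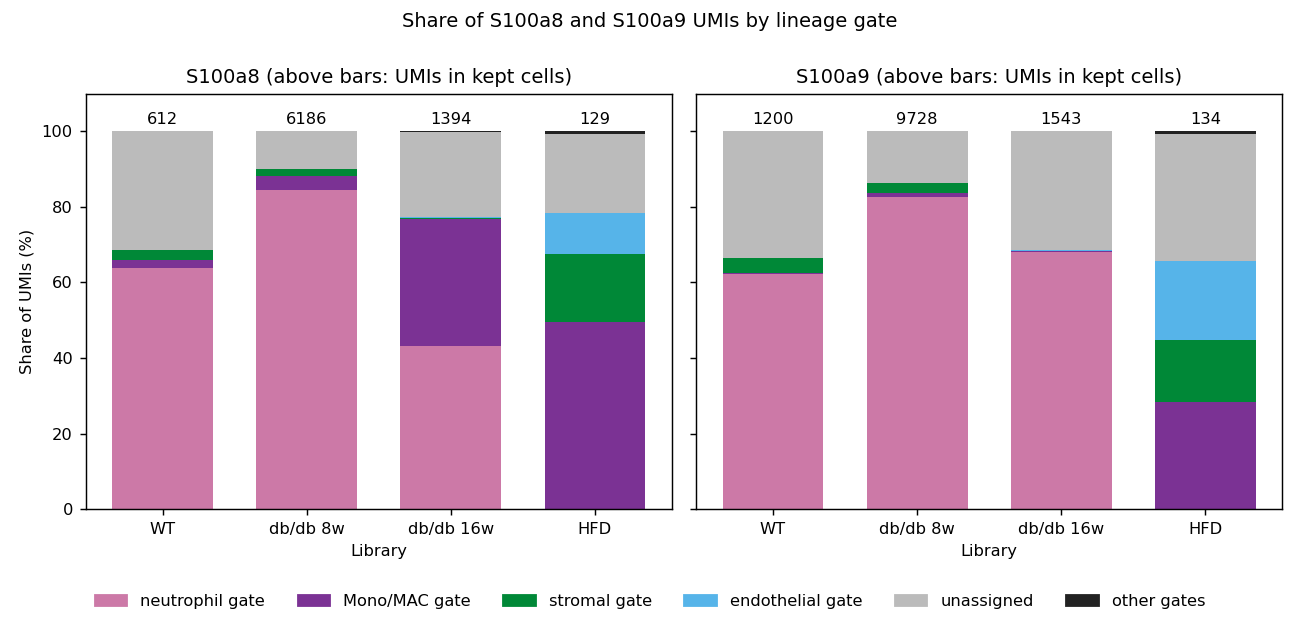
Share (%) of S100a8 and S100a9 UMIs that fell in each lineage gate, by library, with the number of UMIs above each bar. In 16-week db/db the neutrophil gate held 43.0% of S100a8 and 68.2% of S100a9 UMIs, and S100a9 was represented by 1 UMI in the Mono/MAC gate.

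The UMI counts of the complex partners S100a10 and Anxa2 were set against each other within gates, to compare the ratio between libraries. In Mono/MAC cells there were 2.73 (2.57 to 2.90) S100a10 UMIs for each Anxa2 UMI in WT, 1.48 in 8-week db/db, 1.72 in 16-week db/db and 0.639 (0.621 to 0.659) in HFD. In stromal cells there were 3.01, 2.68, 1.92 and 1.68. The ratio was therefore highest in WT and lowest in HFD in both gates. For S100a11 and Anxa1 in Mono/MAC cells the ratio was 1.37, 0.632, 1.002 and 0.343, again lowest in HFD, and in stromal cells 0.971, 1.89, 2.33 and 1.87, where WT was lowest.

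Endothelial cells were compared between 16-week db/db and HFD, the libraries that held over 1000 of them. S100a4 stood at 153.8 and 52.9 CPM and S100a6 at 995 and 422 CPM, both lower in HFD, by log2 -1.54 and -1.24, and Anxa5 was higher in HFD by log2 1.13. The share of all genes at least 2-fold apart was not computed for this gate. The mitochondrial share of UMIs in it was 1.97% in 16-week db/db and 10.85% in HFD. Anxa3 was close to level, at 156 and 174 CPM, and above its level in the stromal gate of 16-week db/db. In 8-week db/db, T and NK cells (110 cells) held S100a4 at 688 CPM and B cells (55 cells) at 84.0 CPM.

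Other genes of both families and their partners were taken from lists. Of 10 other S100 genes 2 were tested in Mono/MAC cells, of 8 other annexins 4, and of 10 partners and receptors 4. None was 2-fold from WT in 8-week db/db. In 16-week db/db S100a1, S100a13, Anxa4, Anxa11 and Plgrkt, a plasminogen receptor, were higher than in WT and Tlr4, a receptor for S100A8 and S100A9, was lower. In HFD S100a1 and Anxa4 were higher. Of all tested genes in this gate, 22.9% were higher and 25.8% lower than in WT in 16-week db/db, and 14.1% and 11.1% in HFD. S100a1 stood at 71.6, 108, 176 and 151.5 CPM and Anxa4 at 74.5, 139, 210 and 164 CPM in WT, 8-week db/db, 16-week db/db and HFD, so for both WT was lowest. Ahnak, a large scaffold bound by the S100A10 and annexin A2 complex, stood at 845, 1170, 1005 and 1447 CPM, within 2-fold of WT throughout.

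In stromal cells the same lists gave 3, 4 and 5 tested genes, none of them 2-fold from WT in 8-week db/db. S100a1 was higher than in WT in 16-week db/db and HFD, by log2 2.07 and 2.20. Plat, the tissue plasminogen activator, stood at 308, 213, 73.0 and 149 CPM and was lower than in WT in 16-week db/db and HFD, by log2 -2.08 and -1.05, as was Tlr4, by log2 -1.94 and -1.53. Of all tested genes in stromal cells, 13.2% were higher and 14.9% lower in 16-week db/db, and 8.96% and 7.83% in HFD.

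Across the 14 units of library and gate with at least 50 cells, the genes whose log2 levels followed a member most closely were listed as a description, since units of 1 library share depth and free RNA. S100a4 was followed by Aprt, Lamtor2 and Gsto1 (Pearson r of 0.904, 0.901 and 0.900). S100a8 was followed by Gm16556, Trem3 and Mmp8 (0.990, 0.990 and 0.988) and S100a9 by Trem1 and Retnlg (0.996 and 0.992). Only 8-week db/db had a neutrophil unit, of 90 cells, and these values rest largely on it. Trem1 and Retnlg were markers used to gate that unit, so their closeness to S100a9 is no separate evidence. Of the annexins listed here, the closest were G6pdx for Anxa1 (0.884), Trappc1 for Anxa2 (0.936) and Pnp for Anxa3 (0.927). Between members r was highest for S100a8 and S100a9 (0.971), again resting largely on the neutrophil unit, and for S100a6 and S100a11 (0.867).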

How the data were processed

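Single-cell RNA sequencing libraries of BAT SVF, 1 per group, were analysed from the deposited matrices. The deposited values were raw counts of UMIs, obtained by the authors from 10x Genomics 3′ libraries with Cell Ranger and the mm10 genome. The processing notes name Cell Ranger 7.1.0, whereas the headers of the count files name 6.0.0. The authors' later filtering and integration were not part of these counts.

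A cell had to have between 250 and 6000 detected genes, between 500 and 30000 UMIs, and less than 15% of its UMIs from mitochondrial genes (limits excluded). Median UMIs per kept cell were 6218.5, 3193, 2733 and 5066 in WT, 8-week db/db, 16-week db/db and HFD. Lineages were gated on at least 3 of 8 marker genes, and subsets on at least 2 of their 8 or 6 markers, with no competing list above 50% of that number. No doublet caller was run, and the exclusive gates and a stricter gate stood in for one. UMIs were summed per library and gate, with exact Poisson intervals for levels, exact conditional binomial intervals for ratios and Clopper-Pearson intervals for shares, all at 95%. A level compared with a count of 0 used a floor of 3 UMIs. For shares each cell was thinned to 1000 UMIs and shallower cells were left out. Likeness to other genes was Pearson's r of log2(CPM + 10) among genes reaching 50 CPM in some unit, and the 3 closest per member were eligible for naming, with 1 result not reported here. Every member is named, and of the fixed family lists those that reached 20 CPM.

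The members and gene lists were chosen with earlier results of these data known. Gates, ratios and intervals were tested on simulated data. Gene positions came from GENCODE M21, in which 32158 of 32285 identifiers were found. Python 3.11.15 with numpy 2.4.6, scipy 1.17.1, pandas 2.3.3 and matplotlib 3.10.9 was used. Alternatives were another scaling, level floor, fold, gate, mitochondrial limit and depth.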

Additional observations from a re-analysis of the deposited data

Results flagged for a closer look

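Anxa1 lay on opposite sides of WT in both large lineages. Against WT its log2 ratio in the Mono/MAC gate was 2.137 in 8-week db/db, 3.051 in 16-week db/db and 3.312 in HFD, and in the stromal gate -0.299, -0.47 and -0.807. All 3 ratios of a lineage rest on the same WT library, and the difference between lineages was not tested. At the WT makeup of subsets the stromal ratios were 0.13, -0.06 and 0.20, and with a stricter gate that of 8-week db/db was 0.24.

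In barcodes removed only for their mitochondrial share, which no comparison used, 4 members were at least 2-fold above WT in a library where the kept cells were not. S100a10 and S100a11 in 8-week db/db had log2 ratios of 1.994 and 1.682, against 0.814 and 0.321 in kept cells. S100a8 and S100a9 in HFD had log2 ratios of 1.148 and 1.339, against -1.781 and -2.697 in kept cells. In the opposite direction, Anxa1 in 16-week db/db was lower than in WT, with a log2 ratio of -1.45 in only 55 such barcodes, against 0.13 in kept cells. These barcodes numbered 6166 in 8-week db/db, 11948 in HFD and 1615 in WT. They were not split by lineage, and the share of all genes at least 2-fold from WT was not computed for them. Whether 4 members is many therefore cannot be told.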

How the results depend on the processing

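Counts of members at least 2-fold from another library stayed within 1.5 times under most alternatives, namely a smaller UMI total, median-of-ratios scaling, thinned cells, floors of 5 and 50 CPM, a floor of 20 CPM in both libraries (added after seeing the data), and the stricter and looser gates. For HFD against WT, the count over all cells was 5 and became 3 with no mitochondrial limit. In stromal cells it was 3, became 5 at a fold of 1.5 and 1 at the WT makeup of subsets, and in Mono/MAC cells it was 5 and became 1 at that makeup. Among ratios counted as at least 2-fold, the sign changed for Anxa3 in stromal cells of HFD against WT, from -1.875 to 0.375 at the WT makeup, which was added after seeing the data and holds subset levels at WT shares. At that makeup 6 ratios within 2-fold also changed sign, among them stromal Anxa1 of 8-week db/db (-0.299 to 0.131) and HFD (-0.807 to 0.199), and under the other alternatives between 1 and 5 per setting. The low counts of S100a8 and S100a9 in stromal cells of HFD, not counted above, changed sign with the looser gate (2.705 to -0.627 and 1.026 to -1.691), S100a9 also with thinned cells (to -0.05), and S100a8 over all cells of HFD with no mitochondrial limit (-1.781 to 0.346). Single ratios were less stable than the counts. With thinned cells 87 ratios moved and 31 stayed the same, with the stricter gate 57 and 13, and with median-of-ratios scaling 71 and 49. With the smaller total 55 moved and 65 stayed, with no mitochondrial limit 53 and 67, and with the looser gate 18 and 62. At the WT makeup 42 moved, 1 reversed and 16 stayed. Of 80 shares of cells, 76 moved beyond their counting interval without thinning, and 69 moved when thinned to 2000 UMIs. No library could be left out, as each group has 1. No paired analysis was possible because each group has 1 pooled library, and the replicate number of 1 in every group was given in accession order. Counts of S100a8 and S100a9 outside the neutrophil gate were low, down to 1 S100a9 UMI in Mono/MAC cells of 16-week db/db.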
